A study of Mus musculus with 5 samples.

Results

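TRIM proteins form a large family of ubiquitin ligases, and the transcripts of 57 TRIM genes were compared here between mouse embryonic stem (ES) cells with Dicer and ES cells deficient in it. The members were the genes whose symbol starts with Trim and a number, leaving out Trim13 and Trim71, among 19938 genes that had a probe set (the array's unit of measurement) carrying 1 gene symbol. One of the 57, Trim30e-ps1, is a transcribed pseudogene in RefSeq, and the others are protein coding. A further 6 probe sets carry a numbered Trim symbol beside other symbols and were not used. RNA came from asynchronous cultures on Affymetrix arrays, with 3 arrays of wild-type cells (WT1, WT2 and WT3) and 2 of Dicer-deficient cells (KO1 and KO2), all described by the series as biological replicates. Both genotypes were grown without feeders in equal parts of serum medium with LIF and serum-free N2B27 medium with 2i inhibitors, so the groups differ by the labels only in genotype. The titles name no cell line, clone or Dicer allele, so an effect of the genotype and one of the lines used cannot be told apart, and p-values measure only the spread between these arrays. Signals are normalized values on a log2 scale, where a difference of 1 is a 2-fold change.

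A TRIM protein carries at its amino end a RING finger, which recruits the ubiquitin-conjugating (E2) enzyme, followed by B-box zinc fingers and a coiled coil through which the proteins dimerise. The part behind the coiled coil varies and sets what the protein binds: B30.2/SPRY, NHL, PHD-bromodomain, COS box and other domains define the subclasses. TRIM ligases are known for restricting viruses and tuning interferon signalling, for silencing retroelements in ES cells through Trim28, and for work on microtubules, centrioles and muscle. Dicer is the ribonuclease that releases mature microRNAs from their precursors.

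The targeted gene was checked first: Dicer1 had signals of 8.84, 8.82 and 8.85 in wild-type and 7.20 and 6.84 in Dicer-deficient cells, in the direction of the labels. Array medians lay between 5.39 and 5.45. All 8 ES cell markers listed, such as Pou5f1 and Nanog, had mean signals over 5.41, the median of the probe sets, but 2 of them, Esrrb and Tdgf1, fell by 0.72 and 0.70 on the log2 scale in Dicer-deficient cells (adjusted p = 0.00655 and 0.00168). In the trophectoderm list 3 of 6 markers, Krt8, Krt18 and Gata3, were higher in Dicer-deficient cells, while Cdx2 had 5.31 and 5.31 and Elf5 4.20 and 4.39 on KO1 and KO2, below 5.41. Eomes, the remaining marker, had 5.92, 6.08 and 5.56 in wild-type and 5.18 and 5.55 in Dicer-deficient cells, separate groups with a log2 change of -0.49 that did not pass the test (adjusted p = 0.0977, unadjusted p = 0.0214 by limma). The summed signal of that list was 8.63 to 8.77 on the log2 scale in wild-type and 9.56 to 9.72 in Dicer-deficient arrays. Sums were also separate for the primitive endoderm list, 10.94 to 11.15 in wild-type against 11.33 to 11.37. Most of that sum is Sparc, with a mean signal of 11.05 and a log2 change of 0.33 (adjusted p = 0.0574 by limma). The other markers of that list had changes from -0.09 (Sox17) to 0.06 (Gata6). For the blood and macrophage list the sums fell, from 8.22 to 8.55 in wild-type to 7.57 to 7.59. Those of the ES cell and feeder fibroblast lists overlapped. Of 5 blood and macrophage markers only Cd68 was called, falling from 7.92 to 6.73. Cd14 and Lyz2 also had separate groups, with log2 changes of -0.30 and 0.06, but did not pass the test (adjusted p = 0.252 and 0.701 by limma). None of the feeder fibroblast or primitive endoderm markers was called by limma (unadjusted p under 0.05 for 0 and 1 of them). The part of these marker shifts in the results below was not tested, and in bulk RNA fewer cells of a type cannot be told apart from less RNA per cell.

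In Dicer-deficient cells 8 TRIM genes rose and 2 fell, and 47 did not pass the test. Those that rose were Trim36, Trim12a, Trim12c, Trim44, Trim56, Trim23, Trim32 and Trim2, and those that fell were Trim37 and Trim25. The called share, 17.5%, was close to the 17.1% of all genes called by limma at an adjusted p of 0.05. By direction, 14% of the TRIM genes were called higher and 3.51% lower, against 8.48% and 8.6% of all genes, a difference that was not tested. Among genes whose mean signal lay above 5.41, 8 of 31 TRIM genes (25.8%) and 27.9% of all genes were called. The median log2 change was 0.03 over the TRIM genes and 0.01 over all genes, and the median size of a change, without its sign, was 0.10 and 0.12. The arrays of the 2 genotypes did not overlap for 21 TRIM genes (36.8%), against 39.9% of all genes. Counted in either direction, the family as a whole thus had about the share of calls of the rest of the array. What follows describes its single members. The count of calls fell when arrays were left out, to 5 higher with 1 lower when WT1 was dropped, 3 with 0 for WT2, 3 with 0 for KO1 and 4 with 0 for KO2, and was 7 with 3 for WT3. Only Trim36 kept its call in all 5 of these fits.

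**Figure D1:**
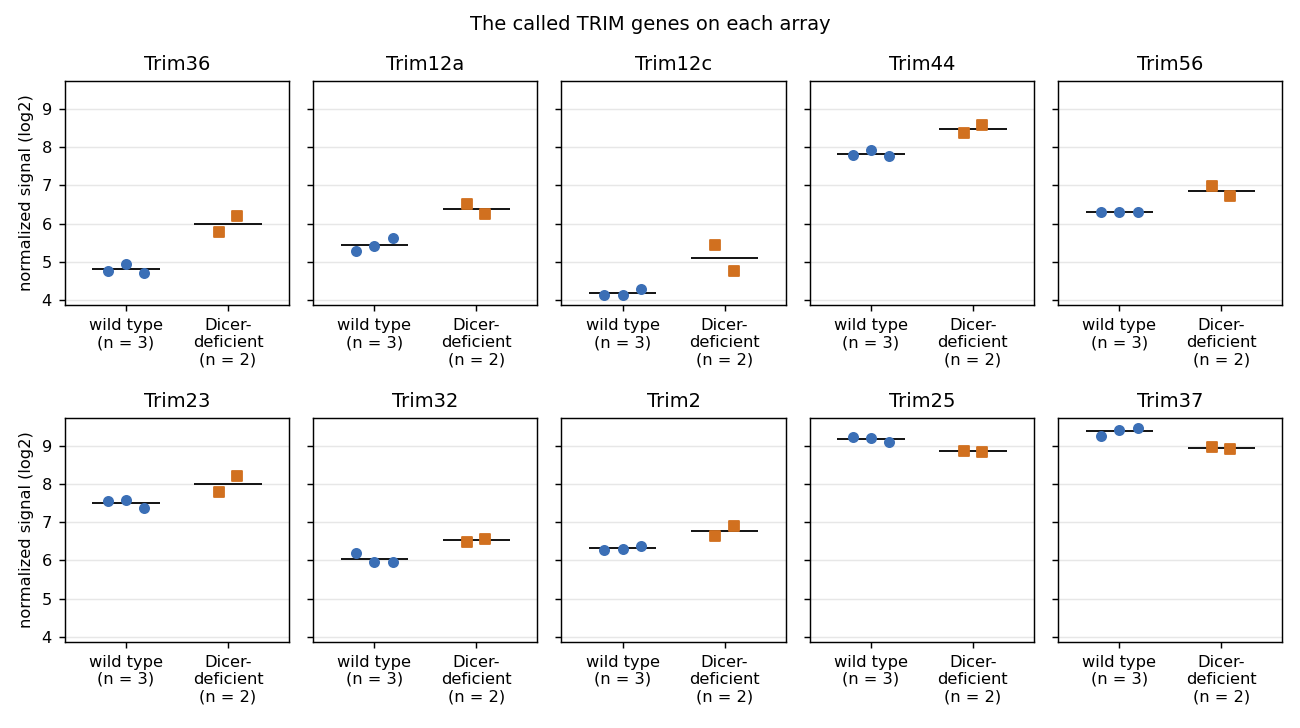
Normalized log2 signal (vertical axis) of the 10 called TRIM genes on each of the 3 wild-type arrays (circles) and 2 Dicer-deficient arrays (squares), with bars at the group means. The groups do not overlap in any panel, and Trim25 and Trim37 are the 2 genes with the lower Dicer-deficient values.

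The 2 neighbouring genes Trim12a and Trim12c, rodent relatives of the retrovirus restriction factor Trim5, rose together. They lie beside each other among the measured genes of a Trim cluster on chromosome 7 that is known for interferon-inducible members. Their promoters are shown because the pair moved together: over the 250 bases before the start, 200 of 211 aligned positions (94.79%) are identical. The stretches below are from RefSeq (GRCm38.p6, minus strand, 5′ to 3′), chr7:104315466-104315615 for Trim12a, which ends 30 bases past the annotated start, and chr7:104353350-104353499 for Trim12c, which ends at the start. Capitals mark a match to GAAANNGAAA, the core of the interferon-stimulated response element, which here reads on the opposite strand.
Trim12a: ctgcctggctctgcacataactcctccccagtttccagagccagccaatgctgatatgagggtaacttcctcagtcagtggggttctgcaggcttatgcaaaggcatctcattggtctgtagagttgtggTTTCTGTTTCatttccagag
Trim12c: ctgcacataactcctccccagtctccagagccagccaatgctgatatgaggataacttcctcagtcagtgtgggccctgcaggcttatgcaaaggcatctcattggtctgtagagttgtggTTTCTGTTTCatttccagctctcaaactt

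Searched on both strands in windows from 250 bases before to 50 bases after the start, with overlapping matches counted, this motif was held by 8 of 44 TRIM genes with a window (18.182%) and by 3.993% of all 27025 genes in the table. The 8 were Trim12a, Trim12c, Trim2, Trim21, Trim26, Trim30a, Trim30d and Trim34a, of which 3 were called higher, 0 lower and 5 were not called. Trim12a, Trim12c, Trim30a, Trim30d and Trim34a belong to the same chromosome 7 cluster, so their matches may not be independent. Of the 44 members with a window 9 were called, and of all genes 8.48% were called higher and 8.6% lower. Whether the motif goes with the calls was not tested. A match is a run of letters and not a measured binding site. Promoter windows were found for 44 of the 57 members, and 13 had none.

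Trim12a had signals of 5.28, 5.41 and 5.63 in wild-type cells and 6.51 and 6.26 in Dicer-deficient cells. Both Dicer-deficient arrays lay above all wild-type arrays, and the gene was 1.93-fold higher (log2 change 0.95, SE 0.125, adjusted p = 0.00228). The signals of Trim12c were 4.14, 4.14 and 4.31 in wild-type cells, near the arrays' lower quartiles of 4.14 to 4.18, and 5.44 and 4.78 in Dicer-deficient cells. Its log2 change was 0.91 (SE 0.177, adjusted p = 0.0115), with no fold because the wild-type mean of 4.20 is under the 5.41 of the median probe set. KO1 was the higher one for both genes. Without it the change of Trim12a was 0.82 (adjusted p = 0.0737) and that of Trim12c 0.58 (adjusted p = 0.0676). Trim12c also missed the threshold without WT1 (adjusted p = 0.0729) or WT2 (0.0788). The 2 genes are close copies and another probe set carries both symbols, so signal from one may be read on the other's probe set.

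The other measured members of that cluster did not pass the test. Trim6, a ligase that forms unanchored ubiquitin chains in interferon signalling, had 9.28, 9.34 and 9.34 in wild-type and 9.14 and 9.24 in Dicer-deficient cells. Its change was -0.13 with a 95% confidence interval of -0.31 to 0.05 (adjusted p = 0.362). Trim30d had 3.80, 3.62 and 3.62 against 3.83 and 4.14, a change of 0.31 (adjusted p = 0.123), with every signal at or below 4.14; as for Trim6, the groups were separate but the test was not passed. Trim34a, Trim30a and the pseudogene Trim30e-ps1 had changes of 0.11, 0.10 and 0.09. Trim21, the cytosolic antibody receptor, and Trim68 lie elsewhere on chromosome 7 and had changes of 0.10 and 0.07.

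The largest change of any member was that of Trim36, a COS box ligase that associates with microtubules. Its signals were 4.77, 4.94 and 4.71 in wild-type cells and 5.78 and 6.20 in Dicer-deficient cells, with both of the latter above all of the former. The log2 change was 1.18 (SE 0.135, adjusted p = 0.00119), and leaving out each array gave 0.97 to 1.39 with adjusted p from 0.0133 to 0.0324. Its wild-type mean of 4.81 is under the 5.41 of the median probe set, so no fold is given. The other 7 COS box genes were not called. Trim63, the muscle ligase MuRF1, had 6.12, 6.13 and 6.45 in wild-type cells against 5.50 and 6.13, so the groups overlapped, and its change of -0.42 had a confidence interval from -0.85 to 0.02 (adjusted p = 0.199). The muscle members Trim54 and Trim55 had changes of 0.09 and 0.03, Trim9, Trim46 and Trim67, which are known from neurons, had 0.06, -0.02 and 0.14, and Trim42 had 0.17.

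Of the NHL ligases, whose carboxyl-terminal propeller binds proteins and, in some members, RNA, Trim32 and Trim2 rose and Trim3 did not pass. Trim32, which is mutated in a limb-girdle muscular dystrophy, had 6.19, 5.97 and 5.95 in wild-type cells and 6.49 and 6.56 in Dicer-deficient cells. It was 1.40-fold higher (log2 change 0.49, SE 0.0973, adjusted p = 0.0128). Its adjusted p rose to 0.0738 when WT2 was dropped, to 0.116 for KO1 and to 0.144 for KO2. Trim2, which ubiquitinates neurofilament light chain, had 6.27, 6.30 and 6.37 against 6.64 and 6.90. It was 1.37-fold higher (log2 change 0.46, SE 0.098, adjusted p = 0.0173). That call ended without WT1 (adjusted p = 0.0747), WT2 (0.0861) or KO2 (0.122). For Trim3 the signals were 7.28, 7.49 and 7.52 against 7.31 and 7.43, which overlap, and the change was -0.06 (confidence interval -0.29 to 0.17).

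Among the TRIM genes with no further domain behind the coiled coil, Trim44 and Trim56 rose besides Trim12a. Trim44, which has a ubiquitin-protease-type zinc finger in place of the RING, had 7.80, 7.92 and 7.76 in wild-type cells and 8.38 and 8.59 in Dicer-deficient cells. It was 1.58-fold higher (log2 change 0.66, SE 0.0962, adjusted p = 0.00342), and its adjusted p was 0.0626 without KO2. Trim56, a ligase of antiviral signalling, had 6.32 on each wild-type array and 6.99 and 6.72 in Dicer-deficient cells. It was 1.45-fold higher (log2 change 0.54, SE 0.0965, adjusted p = 0.00842), but lost its call without WT2 (adjusted p = 0.0548) or KO1 (log2 change 0.40). The groups were separate for both genes. Trim8, a regulator of cytokine signalling, had 8.49, 8.34 and 8.16 against 7.99 and 8.18, an overlap of the groups, and a change of -0.25 (adjusted p = 0.226). Trim29, Trim31, Trim40 and Trim52 had changes of -0.03, 0.13, 0.04 and -0.02.

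Trim37 and Trim23 moved in opposite directions within a mixed group of 4 genes with rarer domains. Trim37, a MATH-domain ligase that restrains centriole assembly, had 9.26, 9.40 and 9.46 in wild-type cells and 8.97 and 8.92 in Dicer-deficient cells. It was 1.35-fold lower (log2 change -0.43, SE 0.088, adjusted p = 0.0146). Both Dicer-deficient arrays lay below all wild-type arrays, but dropping WT2, KO1 or KO2 gave adjusted p of 0.0756, 0.113 or 0.134. Trim23, whose carboxyl end is an ARF-type GTPase, had 7.56, 7.58 and 7.37 against 7.78 and 8.21. It was 1.41-fold higher (log2 change 0.49, SE 0.136, adjusted p = 0.0456). This was the weakest call, lost in each of the 5 fits with an array left out (adjusted p 0.126, 0.13 and 0.14 for WT1, WT2 and WT3, 0.0564 for KO1 and 0.29 for KO2, where the change was 0.28). Trim59, which has a membrane anchor, had 8.65, 8.59 and 8.49 against 8.25 and 8.34, a separation of the groups that did not pass the test (change -0.28, adjusted p = 0.0612, and 0.0485 without WT3). Trim45 had a change of -0.13.

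**Figure D2:**
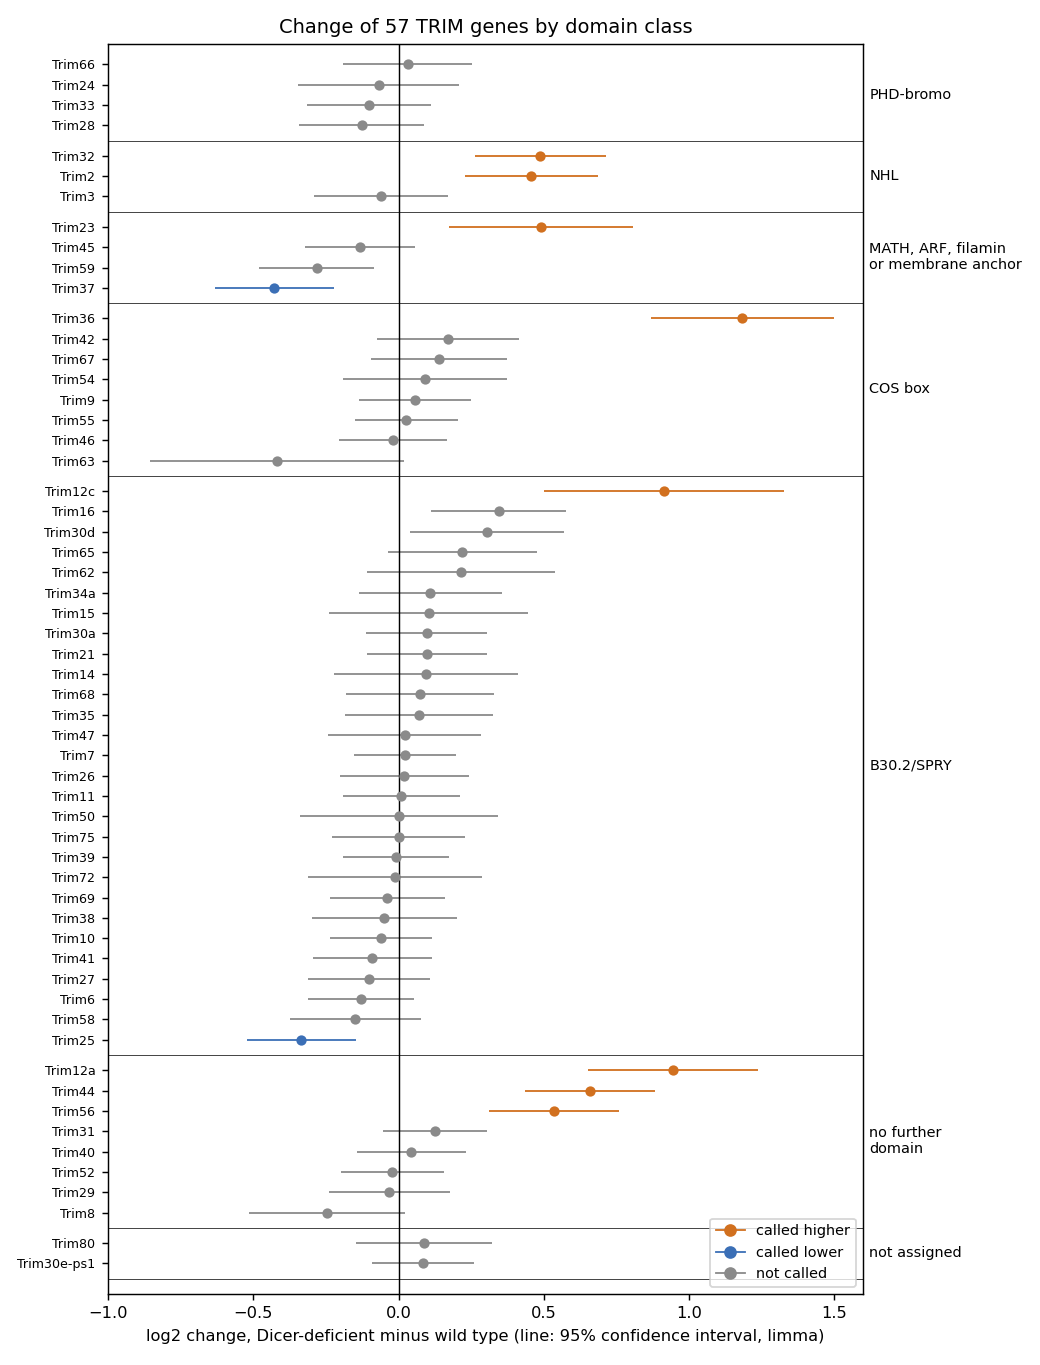
Log2 change, Dicer-deficient minus wild type (horizontal axis), of each of the 57 TRIM genes with its 95% confidence interval from limma, grouped by the domain behind the coiled coil. Called genes are coloured by direction, and all 4 PHD-bromodomain genes lie within 0.13 of zero.

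The B30.2/SPRY class, the largest, had 2 called genes of 28, Trim12c and Trim25. Trim25, the interferon-inducible ligase that attaches ubiquitin to the RNA sensor RIG-I, had 9.23, 9.21 and 9.10 in wild-type cells and 8.87 and 8.82 in Dicer-deficient cells. It was 1.26-fold lower (log2 change -0.34, SE 0.0807, adjusted p = 0.0275), with separate groups. Of the fits with 1 array left out, the one lacking WT3 kept the call, and adjusted p was 0.0827 and 0.108 for WT1 and WT2 and 0.127 and 0.159 for KO1 and KO2. Trim16 came nearest to a call, with 5.92, 5.73 and 5.99 against 6.17 and 6.28 and a change of 0.35 (adjusted p = 0.0533). Trim27, a partner of MAGE proteins in endosomal sorting, had 9.35, 9.40 and 9.44 against 9.19 and 9.40 (change -0.10, confidence interval -0.31 to 0.11). Trim26, a ligase encoded in the major histocompatibility region, had 6.80, 6.90 and 6.64 against 6.81 and 6.79 (change 0.02). Trim11 had 7.41, 7.45 and 7.55 against 7.41 and 7.55 (change 0.01), and Trim21 had 5.01, 4.83 and 5.02 against 5.04 and 5.06 (adjusted p = 0.586). The groups of Trim26, Trim11 and Trim27 overlapped. The others of this class, Trim7, Trim10, Trim14, Trim15, Trim35, Trim38, Trim39, Trim41, Trim47, Trim50, Trim58, Trim62, Trim65, Trim69, Trim72 and Trim75, were not called and had changes between -0.15 (Trim58) and 0.22 (Trim65). Trim80, which was put in no class, had 0.09.

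None of the 4 PHD-bromodomain genes, the chromatin regulators of the family, was called by limma, and none had an unadjusted p under 0.05. Trim28 (KAP1), the corepressor that KRAB zinc finger proteins recruit to silence endogenous retroviruses, had 12.02, 12.01 and 11.81 in wild-type cells and 11.80 and 11.84 in Dicer-deficient cells. The groups overlapped, and the change was -0.13 with a confidence interval of -0.34 to 0.09 (adjusted p = 0.468). Trim24, a cofactor of retinoid receptors, had 8.64, 8.57 and 8.27 against 8.46 and 8.39 (change -0.07, interval -0.34 to 0.21). Trim33, which binds Smad proteins, had 8.13, 7.94 and 7.92 against 7.91 and 7.88 (change -0.10, interval -0.31 to 0.11). Trim66 had 5.04, 5.13 and 5.29 against 5.15 and 5.22 (change 0.03, interval -0.19 to 0.25). Except for Trim33, whose Dicer-deficient values lay just below the wild-type ones, the groups overlapped. These intervals span falls of up to 0.34 for Trim28 and Trim24, so a change of that size is not excluded by these arrays.

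**Figure D3:**
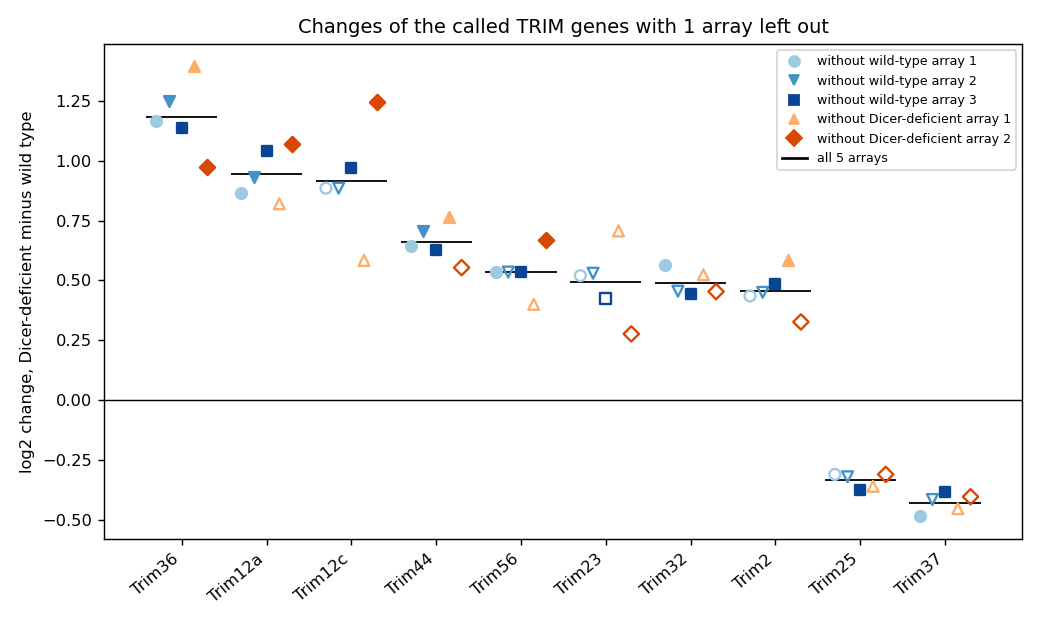
Log2 change (vertical axis) of each called TRIM gene with all 5 arrays (bar) and with each array left out (symbols), filled where the gene was still called and open where it was not. No change switched sign, and Trim36 has 5 filled symbols.

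Genes that work with TRIM ligases were read from lists of relatives, E2 enzymes and partners. Of 9 family relatives without a numbered Trim symbol, Mid1 fell and the other 8, Pml among them, did not pass. Mid1, a COS box ligase of microtubules, went from 9.33, 9.27 and 9.19 to 8.81 and 8.65 (log2 change -0.53, adjusted p = 0.00586, and 0.0795 without KO2). Of 15 measured genes in the list of E2 enzymes and their cofactors, 3 rose and 2, both cofactors, fell (33.3%). All 15 lie above the median signal, where 27.9% of genes were called, against 17.1% of all genes. Ube2l6, the E2 enzyme of the ubiquitin-like modifier ISG15, rose 2.33-fold from 6.28, 6.46 and 6.24 to 7.77 and 7.33 (adjusted p = 0.00113) and kept its call without each array in turn. Ube2w, which modifies amino termini, rose by 0.88 (adjusted p = 0.00191, and 0.0644 without KO2), and Ube2e2 by 0.45 (adjusted p = 0.0437, from 0.0612 to 0.34 with each array left out). The Ube2n cofactors Ube2v1 and Ube2v2, with which that enzyme builds lysine-63 chains, fell by 0.36 and 0.39 on the log2 scale, while Ube2n had a change of -0.02 (adjusted p = 0.932). Ube2v1 and Ube2v2 have 3 probe sets each and Ube2n has 2, and only the brightest is given. Which copy of a gene that probe set reads was not checked, so the contrast with Ube2n may not hold. With the mean of probe sets, 1 gene of the list instead of 2 was called lower, so at least 1 of these 2 falls lost its call. Neither cofactor was called once WT1, WT2, KO1 or KO2 was dropped (adjusted p from 0.0611 to 0.189).

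Of 18 measured partners of Trim28 in silencing, 4 rose and 2 fell (33.3%). With the mean of probe sets 3 were called higher and 2 lower. Of the 4 that rose only Cbx3 has more than 1 probe set, so the lost call was that of Cbx3. It has 7 and is given below by the brightest, and which copy of the gene that one reads was not checked. Setdb1, the histone H3 lysine-9 methyltransferase that Trim28 recruits, went from 8.91, 8.81 and 8.84 to 9.36 and 9.30 (log2 change 0.48, adjusted p = 0.00555). Smarcad1, a chromatin remodeller that binds Trim28, rose from 9.14, 9.26 and 9.03 to 9.85 and 9.81 (log2 change 0.69, adjusted p = 0.0023). Neither was called once KO1 or KO2 was dropped (adjusted p from 0.0548 to 0.0715). Among the heterochromatin protein genes, Cbx5 had a log2 change of 0.33 and Cbx1 one of -0.40. Cbx3 had 0.31 by its brightest probe set, a call not kept with the mean of its probe sets. Uhrf1, which guides maintenance DNA methylation, fell by 0.43 on the log2 scale. None of these 4 was called once WT1, WT2, KO1 or KO2 was dropped (adjusted p from 0.0507 to 0.21). Among 8 retinoid receptor and Smad partners of Trim24 and Trim33, Rara fell from 7.50, 7.30 and 7.31 to 6.27 and 6.55 (log2 change -0.96, adjusted p = 0.0013), and stayed called in all 5 fits with an array dropped. Rxra rose by 0.27, a call lost without any 1 of the arrays (adjusted p from 0.0517 to 0.176).

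Of 19 measured proteins of innate sensing on which TRIM ligases act, 4 rose and 2 fell (31.6%). Ikbkg (NEMO), the regulatory subunit of the IKK complex, rose from 5.88, 5.90 and 5.77 to 6.50 and 6.64 (adjusted p = 0.0015), and Stat2, of the interferon response complex, fell from 7.68, 7.44 and 7.48 to 6.72 and 6.50 (adjusted p = 0.00133). Both kept their call without each array. Irf9, the DNA-binding partner of Stat2, had a log2 change of 0.44, Tank 0.52, the RIG-I adaptor Mavs 0.34 and the interferon receptor chain Ifnar2 -0.54. Mavs lost its call without each array in turn (adjusted p from 0.0808 to 0.238). Irf9 and Ifnar2 were not called once WT1, WT2, KO1 or KO2 was dropped (adjusted p from 0.0562 to 0.273), nor was Tank for WT2, WT3, KO1 or KO2 (0.0758 to 0.214). Ddx58, which encodes RIG-I itself, had a change of 0.22 (adjusted p = 0.232). Most genes of these partner lists lie above the median signal, where 27.9% of all genes were called, and no list was tested as a set.

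**Figure D4:**
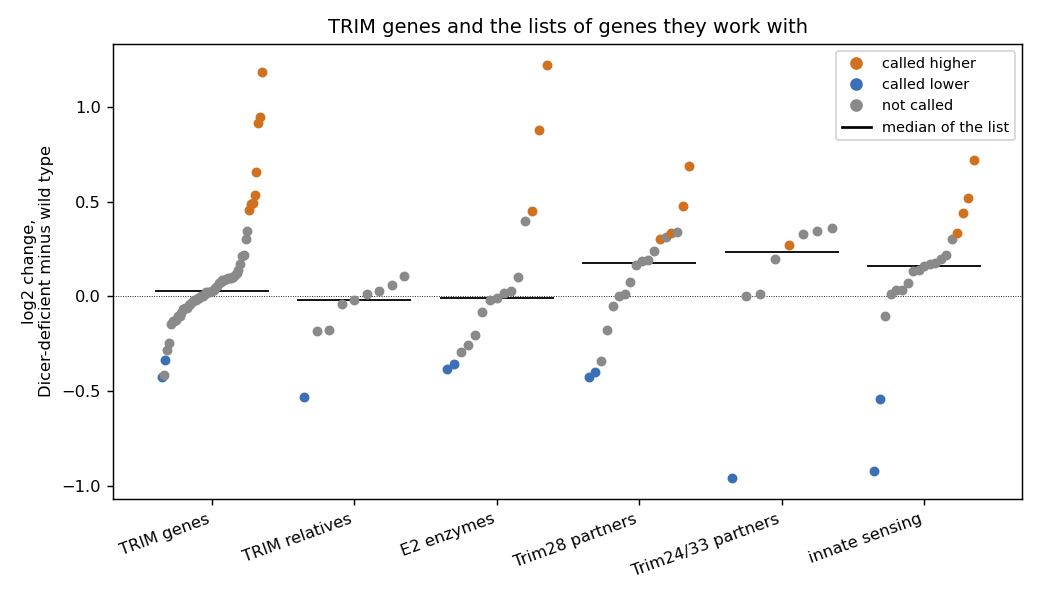
Log2 change, Dicer-deficient minus wild type (vertical axis), of each TRIM gene and each measured gene of the 5 partner lists, sorted within a list, with bars at the medians. Called genes are coloured by direction, and each partner list of E2 enzymes, Trim28 partners and innate sensing has members called both higher and lower.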

How the data were processed

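The authors deposited 1 table of normalized log2 signals for 35556 probe sets on 5 arrays, rounded to 2 decimals. Per the labels, RNA was extracted with RNA-Bee and biotin-labelled. The background correction, summary of probes, normalization and log base are not given in the sources used here; base 2 was read from the range of the values. Arrays were grouped by title as 3 wild-type and 2 Dicer-deficient. Probe sets with 1 symbol in the platform annotation (21789; 1621 had several and 12146 none) were kept, and the one with the highest mean was taken per gene, although each TRIM gene had only 1.

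limma 3.58.1 in R 4.3.3 (lmFit and eBayes, no covariate, Benjamini-Hochberg over 19938 genes at 0.05) gave changes, moderated SEs, 95% confidence intervals and adjusted p-values, with 3 residual and 4.54 prior degrees of freedom. The fit was checked on simulated data. A permutation of 3 against 2 arrays cannot go below p = 0.1, so none is given. With 1 Dicer-deficient array left out, the lone array is assumed to vary like the wild type. The members, lists and tests were chosen with earlier results of these data known, and domain classes are from general knowledge. Named with their array values were the called members, a fixed set of members and the 5 uncalled members with the smallest adjusted p, and of the lists the called genes. Alternatives were dropping each array, a 2-fold minimum, the mean of probe sets, blocking on replicate number, weighting arrays, a trend with intensity, dropping dim genes, centring on medians and a second quantile normalization. Sequences are RefSeq's (GRCm38.p6), aligned with Biopython 1.88, and all 57 members were found in its gene table. No coordinates of probe sets are given, since the array annotation names no build.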

Additional observations from a re-analysis of the deposited data

How the results depend on the processing

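The number of arrays limits every value, and whether a dim signal stands above background was not analysed here. Of the 25 TRIM genes given with their array values, the 10 called ones kept their sign under each of the 13 alternatives that fitted them. The fit without dim genes held 20 of the 25 and left out Trim36 and Trim12c. Among uncalled genes signs did switch, as for Trim11 (0.01, and -0.06 without KO2) and Trim26 (0.02, and -0.05 without WT3). Leaving out 1 array gave 3 to 7 TRIM genes higher and 0 to 3 lower, and 536 to 1395 and 434 to 1558 over all genes. With a minimum change of 2-fold, 1 TRIM gene was higher and 0 lower, and 307 and 151 over all genes. The numbers in the titles do not pair the arrays by any label. The deviations of wild-type and Dicer-deficient arrays with the same number correlated at r = 0.05 for number 1 and 0.01 for number 2. The deviations of KO1 and KO2 from their mean mirror each other, so these values are not 2 separate checks of pairing. With the replicate block, 2 TRIM genes (Trim36 and Trim44) were higher and 0 lower, and 477 and 417 over all genes. Trim16 was called with array weights, without dim genes, centred on medians or quantile normalized again (adjusted p from 0.0159 to 0.0388), and Trim59 under each of these but centring (0.0262 to 0.0484). The median change of the TRIM genes ran from 0.005 to 0.06. The causes of these shifts were not tested.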

Other observations

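The measured genes on either side of the called TRIM genes, 3 in each direction in RefSeq gene order, were read after the calls were known. Of 56 distinct neighbours, 12 were called (21.4%, against 17.1% of all genes), a count in which Trim12a and Trim12c are each other's neighbours. Beside Trim2, Tmem131l rose by 1.20 on the log2 scale, from a mean of 7.49 to 8.69. Ldlrad3, next to Trim44, rose by 0.74, and Elobl, 2 genes from Trim25, fell from 9.77 to 7.58. These 3 neighbours were called without each array in turn (adjusted p of at most 0.0327). Around Trim36 the neighbours went both ways: Mcc, Pggt1b and Fem1c had log2 changes of 0.65, 0.68 and 0.29, and Ythdc2 and Ccdc112 had -0.37 and -0.61. None of these 5 was called once KO2 was dropped (adjusted p from 0.0807 to 0.193), and each also lost its call when at least 1 other array was dropped. Around Trim37, Prr11 had a change of 0.44 and Tex14 one of -0.51, with adjusted p up to 0.3 and 0.156 as arrays were left out. No neighbour of Trim56, Trim32 or Trim23 was called by limma.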
